A study of Mus musculus with 8 samples.

Results

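The ethanol and aldehyde metabolism genes were 8 enzymes, *Adh1*, *Adh5*, *Cyp2e1*, *Cat*, *Aldh2*, *Aldh1b1*, *Aldh1a1*, and *Aldh3a2*, found by exact symbol among the 48709 genes listed in each library of a mouse pancreas RNA-Seq experiment. Pancreata of male mice aged 8 weeks were taken 24 hours after normal saline or after palmitoleic acid (POA) and ethanol, which induce the severe acute alcoholic pancreatitis called FAEE-SAP, for fatty acid ethyl ester. The mice were WT or carried a pancreas-specific knockout of *Pfkfb3* (cKO), in which Cre driven by the *Pdx1* promoter acts on floxed *Pfkfb3*, so the deletion covers the cells of the pancreatic lineage and not the blood, vessel, or fat cells of the tissue. Per the methods of the study, WT mice were purchased, and cKO mice were generated from floxed and Cre mice. A difference between cKO and WT therefore cannot be told apart from one of mouse source or of Cre. Each of the 4 groups (WT saline, cKO saline, WT FAEE-SAP, and cKO FAEE-SAP) held 2 biological replicates, and the ethanol metabolism genes were compared between treatments within each genotype and between genotypes within each treatment. All 8 genes were listed above 0 in every library.

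Ethanol is oxidized to acetaldehyde by cytosolic alcohol dehydrogenases, by the microsomal cytochrome P450 CYP2E1, and by catalase in peroxisomes, and acetaldehyde is oxidized to acetate by aldehyde dehydrogenases, of which mitochondrial ALDH2 has the highest affinity. In the pancreas, ethanol can also be joined to fatty acids without oxidation, giving fatty acid ethyl esters that injure acinar cells. Most of these enzymes have other substrates as well, such as retinoids, formaldehyde, and the aldehydes made by lipid peroxidation.

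The 250 bases before the RefSeq transcription start (GRCm38.p6) are shown for *Aldh1a1* and *Adh5*. After the scaling described below, though not in RPKM as deposited, *Aldh1a1* had the largest change of the genes tested for FAEE-SAP in WT. The level of *Adh5* followed that of *Aldh1a1* across the libraries (Pearson r of 0.859 over the 8 libraries, a description with no test). *Aldh2* followed *Aldh1a1* more closely (0.934) but had no RefSeq window here. RefSeq gives 2 start sites for each of these genes, and the window shown is the one nearest to the annotated start of the gene. The *Aldh1a1* stretch lies at chr19:20492333-20492582 on the plus strand and the *Adh5* stretch at chr3:138442843-138443092 on the plus strand, and neither overlaps an annotated exon. The capitals mark an AP-1 motif (TGANTCA) in *Aldh1a1* and GC boxes (GGGCGG, here as its reverse complement) in *Adh5*.
Aldh1a1: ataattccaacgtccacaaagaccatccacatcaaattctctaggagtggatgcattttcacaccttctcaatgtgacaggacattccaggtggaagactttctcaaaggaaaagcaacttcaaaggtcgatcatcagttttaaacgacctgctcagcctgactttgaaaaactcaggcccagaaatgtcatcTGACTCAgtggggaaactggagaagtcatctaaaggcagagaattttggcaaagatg
Adh5: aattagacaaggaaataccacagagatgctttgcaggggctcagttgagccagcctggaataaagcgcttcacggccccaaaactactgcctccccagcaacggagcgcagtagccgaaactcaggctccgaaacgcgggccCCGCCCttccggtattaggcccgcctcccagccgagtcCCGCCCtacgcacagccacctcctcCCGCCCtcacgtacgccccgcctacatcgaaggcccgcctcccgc

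The *Aldh1a1* window of 300 bases, which adds 50 bases after the start, held 3 CpG dinucleotides and had a GC content of 43.3%, below the lower quartile of all promoters in the RefSeq set (45.7%). This *Adh5* window held 26 CpG dinucleotides at a GC content of 65.0%, above the upper quartile (61.7%), and 3 GC boxes. The windows at the other start sites were closer to each other, at a GC content of 47.0% with 3 CpG dinucleotides and 0 GC boxes in *Adh5* (from base 138436950) and 47.0% with 1 CpG dinucleotide in *Aldh1a1* (from base 20601718), so the contrast in composition rests on the start site. On either strand, TGANTCA stood in 7.81% and GGGCGG in 35.7% of 32851 such windows. RefSeq windows were found for 7 of the 8 genes, all but *Aldh2*. Each of the windows of *Aldh1b1*, *Aldh3a2*, and *Cat* held 1 GC box, and the *Cyp2e1* window held 1 TATA box (TATAAA, in 13.6% of windows) at base -31, as did the other *Adh5* window, at base -207. The *Cat* window held 4 CCAAT boxes (CCAAT, in 37.4% of windows). No window of the 7 genes held the antioxidant response element core (TGACNNNGC, in 12.4% of windows), which can share bases with the AP-1 motif. A match or its absence describes these letters alone.

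Depth, worked out from the low values, was 22.8 to 37.6 M reads per library. Levels are RPKM, which relate the reads of a gene to its exonic length and to the total of mapped reads, divided by a factor per library, the median of its ratios to the geometric mean of all libraries. The factors were 0.618 to 0.862 in the saline libraries, 0.971 and 1.04 in cKO FAEE-SAP, and 1.93 and 2.01 in WT FAEE-SAP, so that without this scaling the median gene tested stood 1.24 higher on the log2 scale after FAEE-SAP in WT and 0.57 higher in cKO. Every direction given for an ethanol metabolism gene is therefore relative to the median gene. Summed scaled RPKM of 10 acinar markers, the digestive enzymes and transcription factors of the exocrine cells, was high in every library. With saline it was 2.24e+05 to 2.62e+05 in WT and 3.01e+05 to 3.05e+05 in cKO, and with FAEE-SAP it was 7.33e+04 to 7.53e+04 in WT and 1.80e+05 to 2.02e+05 in cKO. In bulk tissue, fewer acinar cells and less RNA per cell cannot be told apart. *Pfkfb3*, the targeted gene, had, with saline, a scaled RPKM of 1.71 and 1.70 in WT and 0.885 and 2.11 in cKO, and with FAEE-SAP 1.86 and 3.23 in WT and 1.74 and 2.84 in cKO. The genotypes overlapped, and values per gene cannot test a deletion of part of the gene. The first cKO saline library stood apart in *Fabp1* (12.7 scaled RPKM against 0 to 0.154 elsewhere) and *Apoa1* (10.5 against 0 to 0.157), genes of hepatocytes and enterocytes. Without it, *Aldh1a1* for FAEE-SAP against saline in cKO was at -0.47 (adjusted p = 0.765) in place of the -0.61 given later, and of the directions of the ethanol metabolism genes that of *Cat* in the interaction turned (0.0072 in place of -0.18).

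In WT saline, *Aldh1a1* and *Aldh2* were the most abundant of the 8 genes per kilobase of exon. *Aldh1a1* had a mean of 14.2 ± 2.32 scaled RPKM and *Aldh2* 12.8 ± 0.346 (SD, n = 2), and their libraries overlapped. *Cat* followed at 9.86 ± 0.832, then *Cyp2e1* and *Adh5*, which overlapped, then *Adh1* at 4.62 ± 0.301 and *Aldh3a2* at 3.28 ± 0.0807. *Aldh1b1* was lowest at 0.484 ± 0.214, on 18 to 45 reads in each of the 8 libraries. The order was different in WT FAEE-SAP. *Aldh2* and *Cat* led at 7.26 ± 0.173 and 6.74 ± 0.382, and *Aldh3a2* (4.54 ± 0.292), *Aldh1a1* (4.51 ± 1.21), and *Adh1* (3.53 ± 0.186) overlapped in sequence behind them. In cKO FAEE-SAP, *Aldh2* and *Aldh1a1* again led without overlap, at 11.2 ± 1.03 and 8.72 ± 0.0096, and *Cat*, *Adh1*, *Adh5*, *Cyp2e1*, and *Aldh3a2* each overlapped the next in that order of means, although *Aldh3a2* lay below *Cat*, *Adh1*, and *Adh5* without overlap. With saline, the 8 genes summed to 53.3 and 60.9 in WT and 60.6 and 54.0 in cKO, and with FAEE-SAP to 33.0 and 31.4 in WT and 44.4 and 40.9 in cKO. On this scale the WT FAEE-SAP libraries were the lowest pair, and cKO FAEE-SAP lay between them and saline. In RPKM as deposited the order turned over, with WT FAEE-SAP the highest pair at 66.5 and 60.4, against 38.6 and 52.5 (WT) and 37.5 and 35.7 (cKO) with saline and 46.2 and 39.7 in cKO FAEE-SAP.

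**Figure D1:**
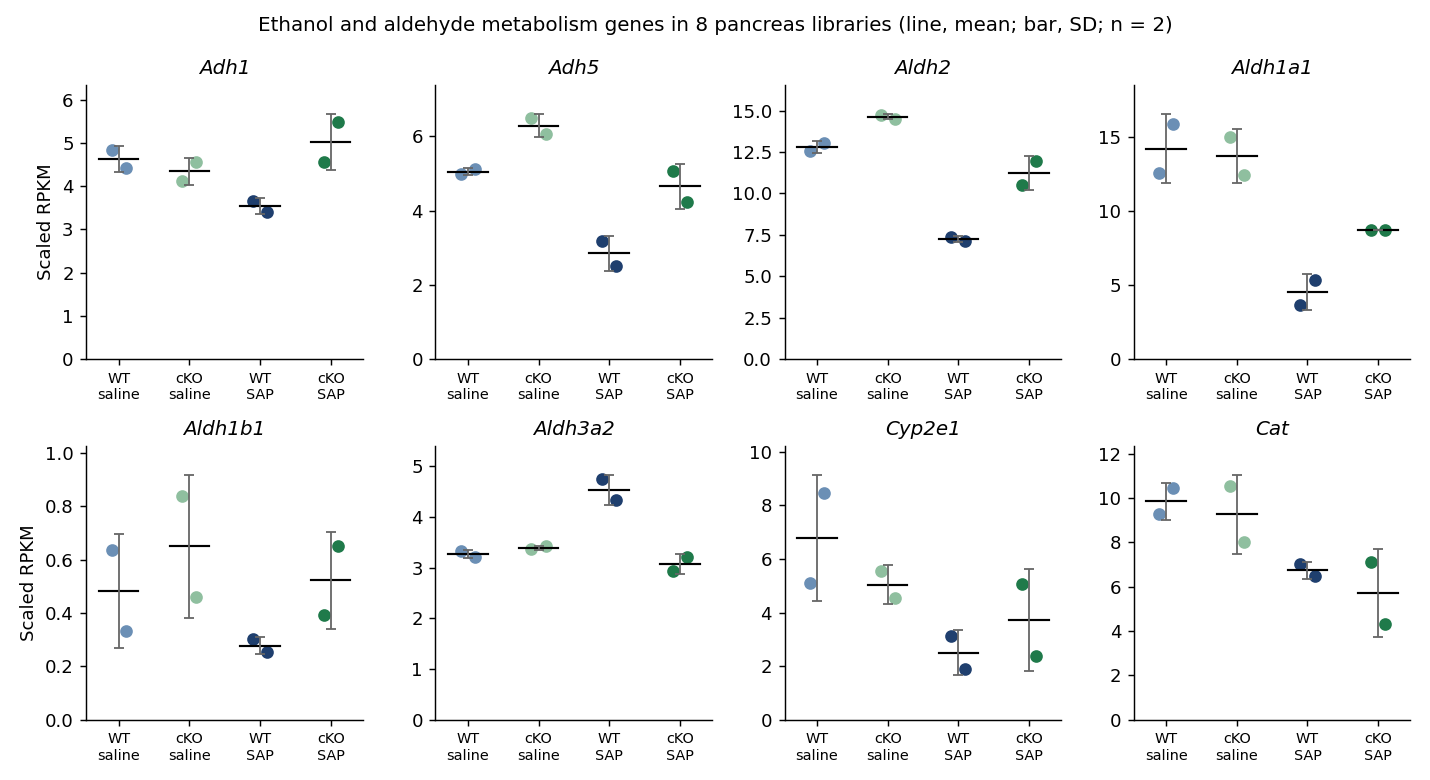
Scaled RPKM (y axis, from 0, a separate scale for each gene) of the 8 genes in the 4 groups. Each point is 1 library, the line the group mean, and the bar the SD (n = 2). The WT FAEE-SAP libraries are below both WT saline libraries for 7 genes and above them for *Aldh3a2*.

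FAEE-SAP in WT mice went with lower *Aldh1a1*, and with smaller differences of the other genes that did not pass the call (adjusted p under 0.05 and at least 2-fold, limma, with Benjamini-Hochberg adjustment across the genes tested). *Aldh1a1* fell 3.16-fold (log2 fold change -1.66, SE 0.25, 95% interval -2.28 to -1.04, adjusted p = 0.0225). It was the single gene called among the 7 tested, where 6.93% of 10894 genes tested were called in either direction. The call was lost when any 1 of the 4 libraries was left out (97 to 491 genes were then called, of 755), and as deposited *Aldh3a2* was called in its place among 7270 genes. *Aldh1b1* was not tested, since its RPKM reached 0.5 in 1 of the 4 libraries. All 8 genes separated the treatments in WT, 7 lower and 1 higher with FAEE-SAP, against 29.1% of all genes tested that lay lower and 29.7% higher without overlap. The median log2 fold change was -0.82 for the 7 genes and 0.02 for all genes tested.

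Of the enzymes that oxidize ethanol, *Adh1* encodes the class I alcohol dehydrogenase (chr3:138260991-138290698, plus strand). Its scaled RPKM was 4.84 and 4.41 in WT saline and 3.67 and 3.402 in WT FAEE-SAP. The log2 fold change was -0.39 (SE 0.19, adjusted p = 0.254). *Adh5* (chr3:138443093-138455499, plus strand), which encodes the class III enzyme that clears formaldehyde bound to glutathione, had 4.99 and 5.12 in WT saline and 3.18 and 2.52 in WT FAEE-SAP. Both FAEE-SAP libraries were low, but the log2 fold change of -0.82 (SE 0.21, adjusted p = 0.0695) did not pass. *Cyp2e1* (chr7:140763739-140774987, plus strand), the ethanol-inducible P450 of the endoplasmic reticulum, had 5.12 and 8.44 in WT saline and 3.11 and 1.90 in WT FAEE-SAP. The libraries did not overlap but spread widely within each group, and the log2 fold change of -1.41 (SE 0.34, adjusted p = 0.0631) missed the threshold at 2.66-fold. *Cat* (chr2:103453849-103485160, minus strand) encodes catalase, the peroxisomal enzyme that breaks down hydrogen peroxide and can use it to oxidize ethanol. It had 9.27 and 10.5 in WT saline and 7.01 and 6.47 in WT FAEE-SAP (log2 fold change -0.55, SE 0.18, adjusted p = 0.118). In RPKM as deposited the log2 fold changes of *Adh1*, *Adh5*, and *Cat* had the other sign (0.91, 0.47, and 0.76), so these were lower relative to the median gene and not in RPKM itself, and *Cyp2e1* was at -0.11.

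Among the aldehyde dehydrogenases, *Aldh1a1* (chr19:20492715-20643465, plus strand) encodes the cytosolic enzyme that oxidizes retinaldehyde as well as acetaldehyde. Its scaled RPKM was 12.6 and 15.8 in WT saline and 3.65 and 5.36 in WT FAEE-SAP. Both FAEE-SAP libraries were well under the saline pair. A noncoding gene, *C730002L08Rik*, overlaps it on the opposite strand and has no value here, so without knowledge of the strand setting its reads cannot be told apart from those of *Aldh1a1*. As deposited, where the median gene moved up, its log2 fold change was -0.35 (adjusted p = 0.283), and without any 1 of the 4 libraries it was -1.89 to -1.34 with an adjusted p of 0.055 to 0.0722, so that the call was lost each time. *Aldh2* (chr5:121566027-121593824, minus strand), the mitochondrial enzyme that carries most acetaldehyde oxidation, had 12.6 and 13.1 in WT saline and 7.38 and 7.13 in WT FAEE-SAP. Its log2 fold change of -0.82 (SE 0.17) had an adjusted p of 0.0442 and, at 1.76-fold, stayed under the 2-fold minimum. As deposited, it was 0.49. *Aldh1b1* (chr4:45799022-45804604, plus strand), a mitochondrial relative of ALDH2, had 0.635 and 0.333 in WT saline and 0.302 and 0.255 in WT FAEE-SAP.

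*Aldh3a2* (chr11:61223417-61267464, minus strand) encodes the fatty aldehyde dehydrogenase of the endoplasmic reticulum, which acts on long-chain aldehydes and not chiefly on acetaldehyde. It had 3.33 and 3.22 scaled RPKM in WT saline and 4.74 and 4.33 in WT FAEE-SAP, the one gene of the 8 whose FAEE-SAP pair was the higher. The log2 fold change was 0.45 (SE 0.19, adjusted p = 0.190). As deposited, its RPKM was 2.41 and 2.77 in WT saline and 9.55 and 8.34 in WT FAEE-SAP, and the log2 fold change of 1.75 passed the call (adjusted p = 0.0017). The sign was the same on both scales, and the size and the call were not.

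In the cKO pancreas, 0 of the 8 genes were called with FAEE-SAP against saline, where 0.0531% of 9423 genes tested were called (5 genes by limma, and 888 genes at an unadjusted p under 0.05, among them *Aldh1a1*). The median log2 fold change of the 8 genes was -0.37. *Aldh1a1* had 15.0 and 12.4 scaled RPKM in cKO saline and 8.73 and 8.72 in cKO FAEE-SAP, with a log2 fold change of -0.61 (SE 0.19, 95% interval -1.09 to -0.12, adjusted p = 0.449). *Aldh2* had 14.7 and 14.5 against 10.5 and 11.97, and *Adh5* had 6.51 and 6.07 against 5.08 and 4.22. These libraries did not overlap either, and the log2 fold changes were -0.35 (adjusted p = 0.571) and -0.40 (adjusted p = 0.575). *Cat* had 10.5 and 8.01 in cKO saline and 7.11 and 4.31 in cKO FAEE-SAP (log2 fold change -0.69, adjusted p = 0.564). *Cyp2e1* overlapped, at 5.56 and 4.53 against 5.06 and 2.36, and so did *Adh1*, at 4.13 and 4.57 against 4.57 and 5.48. *Aldh3a2* had 3.37 and 3.43 in cKO saline and 2.93 and 3.21 in cKO FAEE-SAP, and *Aldh1b1* had 0.840 and 0.461 against 0.394 and 0.653. Altogether 5 genes were lower without overlap and 0 were higher, against 23.6% and 19.6% of all genes tested. As deposited, 6 of the log2 fold changes changed sign, with *Aldh1a1* at 0.01 and *Aldh3a2* at 0.49, and *Adh1* and *Cat* kept theirs.

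With saline, no difference between cKO and WT pancreata in the genes tested was detectable with 2 libraries in each group. The 7 genes tested had log2 fold changes between -0.41 (*Cyp2e1*) and 0.28 (*Adh5*), all with an adjusted p of 0.999. *Adh1* was at -0.11, *Cat* at -0.13, and *Aldh2* at 0.16, and *Aldh1b1* was not tested. By limma, 0% of 8715 genes tested were called, and 187 had an unadjusted p under 0.05, none of them among the 7. *Adh5*, *Aldh2*, and *Aldh3a2* were higher in both cKO libraries without overlap, as were 16.3% of all genes tested. As deposited, *Aldh2* (-0.11) and *Aldh3a2* (-0.24) had the other sign. The intervals still allow moderate differences. The 95% interval of *Aldh1a1* ran from -0.63 to 0.48 and that of *Cyp2e1* from -1.19 to 0.37 on the log2 scale. Without the second cKO saline library *Aldh1a1* and *Cat* changed sign, to 0.06 for each, and without the second WT saline library *Aldh1a1* was at 0.11.

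**Figure D2:**
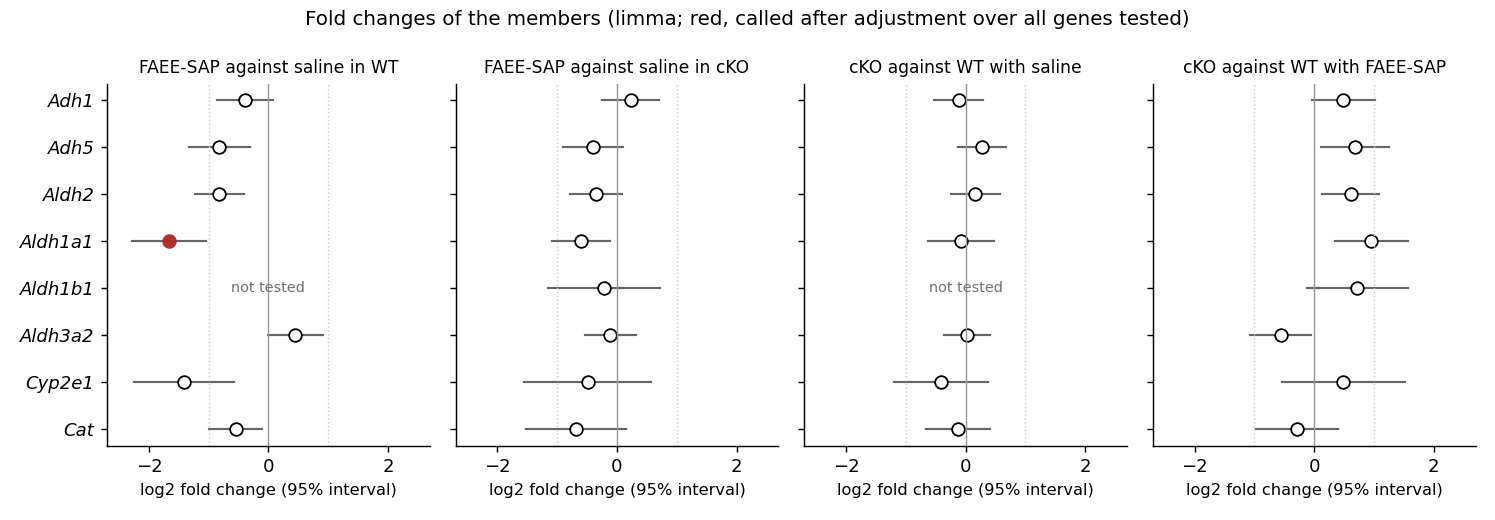
Log2 fold changes (x axis) of the 8 genes (rows) in 4 comparisons, with 95% intervals from limma. Dotted lines mark 2-fold. *Aldh1a1* for FAEE-SAP against saline in WT is the one filled point, the one value that passed the call, and *Aldh1b1* was not tested in 2 of the comparisons.

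With FAEE-SAP, 5 of the 8 genes were higher in both cKO libraries than in both WT libraries and 1, *Aldh3a2*, was lower, where 26.5% and 25.4% of all genes tested lay higher and lower without overlap. None of the 8 was called, against 1.27% of 11008 genes tested (140 by limma, with 2148 at an unadjusted p under 0.05, of which 4 were ethanol metabolism genes). *Aldh1a1* had the widest separation, at 8.73 and 8.72 scaled RPKM in cKO against 3.65 and 5.36 in WT (log2 fold change 0.96, SE 0.25, 95% interval 0.34 to 1.57, adjusted p = 0.138). *Aldh1b1* was at 0.73 (SE 0.34, adjusted p = 0.312), on 26 to 45 reads per library. *Adh5* was at 0.69 (SE 0.23, adjusted p = 0.194), *Aldh2* at 0.61 (SE 0.19, adjusted p = 0.183), and *Adh1* at 0.48 (adjusted p = 0.287). *Aldh3a2* was at -0.56 (SE 0.21, adjusted p = 0.219). *Cyp2e1* and *Cat* overlapped between genotypes, at 0.49 (adjusted p = 0.574) and -0.29 (adjusted p = 0.619), and each changed sign when 1 of the cKO FAEE-SAP libraries was left out. As deposited, *Adh1*, *Adh5*, *Aldh2*, *Aldh1b1*, and *Cyp2e1* had the other sign, *Aldh1a1* was at 0.0094, and *Aldh3a2* (-1.50) and *Cat* (-1.24, adjusted p = 0.0218) passed the call.

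Whether the FAEE-SAP effect differed between the genotypes was tested as an interaction over all 8 libraries. None of the 8 genes was called, against 0.0719% of 11133 genes tested (8 by limma, with 1398 at an unadjusted p under 0.05). For *Aldh1a1* the effect in cKO minus that in WT was 1.01 on the log2 scale (SE 0.32, 95% interval 0.25 to 1.77, adjusted p = 0.299). For *Aldh3a2* it was -0.60 (SE 0.22, 95% interval -1.12 to -0.08, adjusted p = 0.346), since its FAEE-SAP libraries were above saline in WT and below saline in cKO. For *Adh1* it was 0.58 (SE 0.24, adjusted p = 0.391), and as deposited -0.078. The other 5 genes were at -0.18 (*Cat*), 0.33 (*Aldh1b1*), 0.38 (*Adh5*), 0.43 (*Aldh2*), and 0.87 (*Cyp2e1*). As deposited, the interaction of *Aldh3a2* was -1.26 and passed the call (adjusted p = 0.0444). The fall of *Aldh1a1* in WT and its uncalled value in cKO were thus not shown to differ.

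Ratios between genes within a library do not depend on the scaling. Those given here were chosen after the values were seen and were not tested. The ratio of *Aldh3a2* to *Aldh2* RPKM was, with saline, 0.265 and 0.247 in WT and 0.229 and 0.236 in cKO, and with FAEE-SAP 0.643 and 0.607 in WT and 0.279 and 0.268 in cKO. Only the WT FAEE-SAP pair was above 0.3, and the other 6 libraries were close together. The ratio of *Aldh3a2* to *Aldh1a1* was, with saline, 0.265 and 0.203 in WT and 0.224 and 0.276 in cKO, and with FAEE-SAP 1.30 and 0.808 in WT and 0.336 and 0.369 in cKO. The mitochondrial to cytosolic pair, *Aldh2* to *Aldh1a1*, stood at 1.001 and 0.824 in WT saline and 2.02 and 1.33 in WT FAEE-SAP, and at 0.982 and 1.17 in cKO saline and 1.21 and 1.37 in cKO FAEE-SAP. The ratio of *Adh1* to *Adh5* was higher with FAEE-SAP than with saline in each genotype, at 0.970 and 0.861 against 1.15 and 1.35 in WT, and at 0.635 and 0.753 against 0.899 and 1.30 in cKO. A ratio shows unequal change of a pair and not which gene moved.

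**Figure D3:**
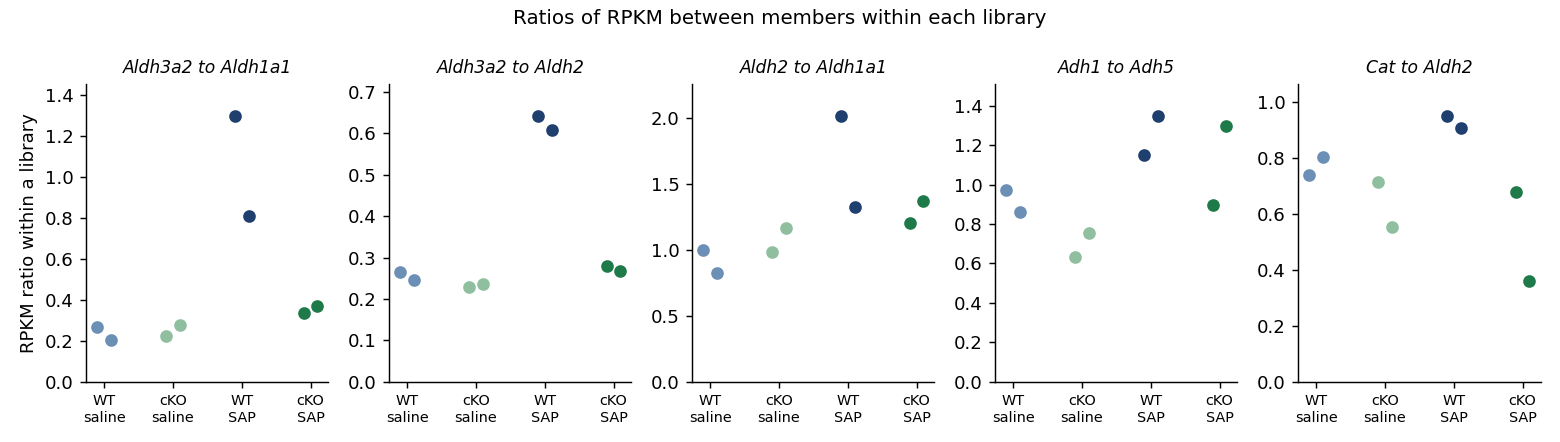
Ratio of RPKM between pairs of genes within each library (y axis, from 0, a separate scale for each ratio), 1 point per library in the 4 groups. The ratios of *Aldh3a2* to *Aldh1a1* and to *Aldh2*, and that of *Cat* to *Aldh2*, set the WT FAEE-SAP libraries apart from the other 6.

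Other genes of the pathway were counted on lists, again relative to the median gene and beside the 6.93% of all genes called in WT. Of 21 other alcohol and aldehyde dehydrogenases, 14 were tested for FAEE-SAP against saline in WT, and 4 were called lower and 0 higher. The log2 fold change was negative for 10 and positive for 4, with a median of -0.94. As deposited, the list median was 0.27, 1 was called lower (*Aldh1l2*, at -3.06), and 5 were called higher. *Aldh1l2*, the mitochondrial 10-formyltetrahydrofolate dehydrogenase, had 3.99 and 5.73 scaled RPKM in WT saline and 0.130 and 0.258 in WT FAEE-SAP (log2 fold change -4.20, SE 0.33, adjusted p = 0.00357). *Aldh1a7*, a close paralog of *Aldh1a1* whose reads could be shared with it, fell by 2.17 on the log2 scale (adjusted p = 0.0328). *Aldh6a1*, of valine breakdown, and *Aldh7a1*, of lysine breakdown, fell by 1.67 (adjusted p = 0.0159) and 1.51 (adjusted p = 0.0183). As deposited, *Aldh1a7*, *Aldh6a1*, and *Aldh7a1* were at -0.87, -0.35, and -0.21 and were not called. Neither *Aldh1a7* nor *Aldh6a1* was called with no filter on low values (limma, adjusted p = 0.0832 and 0.05002). A replicate block also ended the call of *Aldh1a7* (adjusted p = 0.0582). When a library was left out, the calls of *Aldh1a7*, *Aldh6a1*, and *Aldh7a1* were not made in every fit. *Aldh1l2*, *Aldh6a1*, and *Aldh7a1* are not chiefly enzymes of acetaldehyde. *Adh4*, *Adh6a*, *Adh6b*, *Adh7*, and *Aldh3a1* were each listed at 0 in 2 to 7 libraries.

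Of 11 enzymes of ester synthesis and hydrolysis, 6 were tested and 4 fell with FAEE-SAP in WT, with a list median of -2.13. In RPKM as deposited, the list median was -0.87, with 1 called lower (*Ces1d*) and 2 called higher. *Cel*, the carboxyl ester lipase of pancreatic juice, which can form fatty acid ethyl esters, had 12420 scaled RPKM in both WT saline libraries and 2301 and 3363 in WT FAEE-SAP (log2 fold change -2.16, SE 0.20, adjusted p = 0.00576). *Lpl*, lipoprotein lipase, fell by 2.25 (adjusted p = 0.00721), and the carboxylesterases *Ces1d* and *Ces1e*, which belong to a cluster of close paralogs, fell by 2.71 and 2.10 (adjusted p = 0.00298 and 0.0236). As deposited, *Cel*, *Lpl*, *Ces1d*, and *Ces1e* were at -0.84, -0.94, -1.42, and -0.91. Quantile normalization put *Cel* at -0.37, not called (limma, adjusted p = 0.364). Neither *Cel* nor *Ces1e* was called with no filter on low values (adjusted p = 0.0519 and 0.0667). When a library was left out, the call of *Ces1e* was not made in every fit. Of 12 aldehyde and ketone reductases and oxidases, 9 were tested. In RPKM as deposited, 6 of these were called higher (list median 1.40, against 0.096 on the scaled values). On the scaled values, 1 was called higher. That was *Akr1b8*, an aldo-keto reductase of aldehydes, with 0.227 and 0.312 in WT saline and 3.87 and 3.27 in WT FAEE-SAP (log2 fold change 3.38, SE 0.25, adjusted p = 0.0032). Of 6 genes of acetate activation and P450 electron transfer, 4 were tested and *Acss1*, the mitochondrial acetyl-CoA synthetase that activates acetate, fell by 1.87 (adjusted p = 0.0117). Of 15 peroxisomal and hydrogen peroxide enzymes, 11 were tested and *Ehhadh*, of peroxisomal fatty acid oxidation, fell by 1.56 (adjusted p = 0.0182). As deposited, these were at -0.61 and -0.26, not called, and *Akr1b8* was at 4.51 and called. Of 13 retinoid genes, 7 were tested, with a list median of 0.14 and 0 called. Without the scaling, 5 of these 7 were called higher, with a list median of 1.27. Of the peroxisomal and the acetate lists, 8 of 11 and 2 of 4 were called higher as deposited (list medians 1.51 and 1.07).

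In cKO with FAEE-SAP, 0 genes of these 6 lists were called. Between genotypes with FAEE-SAP, *Aldh1l2* was higher in cKO, at 4.70 and 2.09 against 0.130 and 0.258 scaled RPKM in WT (log2 fold change 3.63, SE 0.46, adjusted p = 0.0331), and so was *Lpl*, at 8.65 and 10.3 against 2.29 and 3.04 (log2 fold change 1.80, SE 0.24, adjusted p = 0.0387). Both calls ended with no filter on low values (adjusted p = 0.132 and 0.151) and in every fit with a library left out that tested the gene. As deposited, *Aldh1l2* was at 2.81 and called, and *Lpl* was at 0.86 and not called. With saline and in the interaction, 0 genes of the lists were called.

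**Figure D4:**
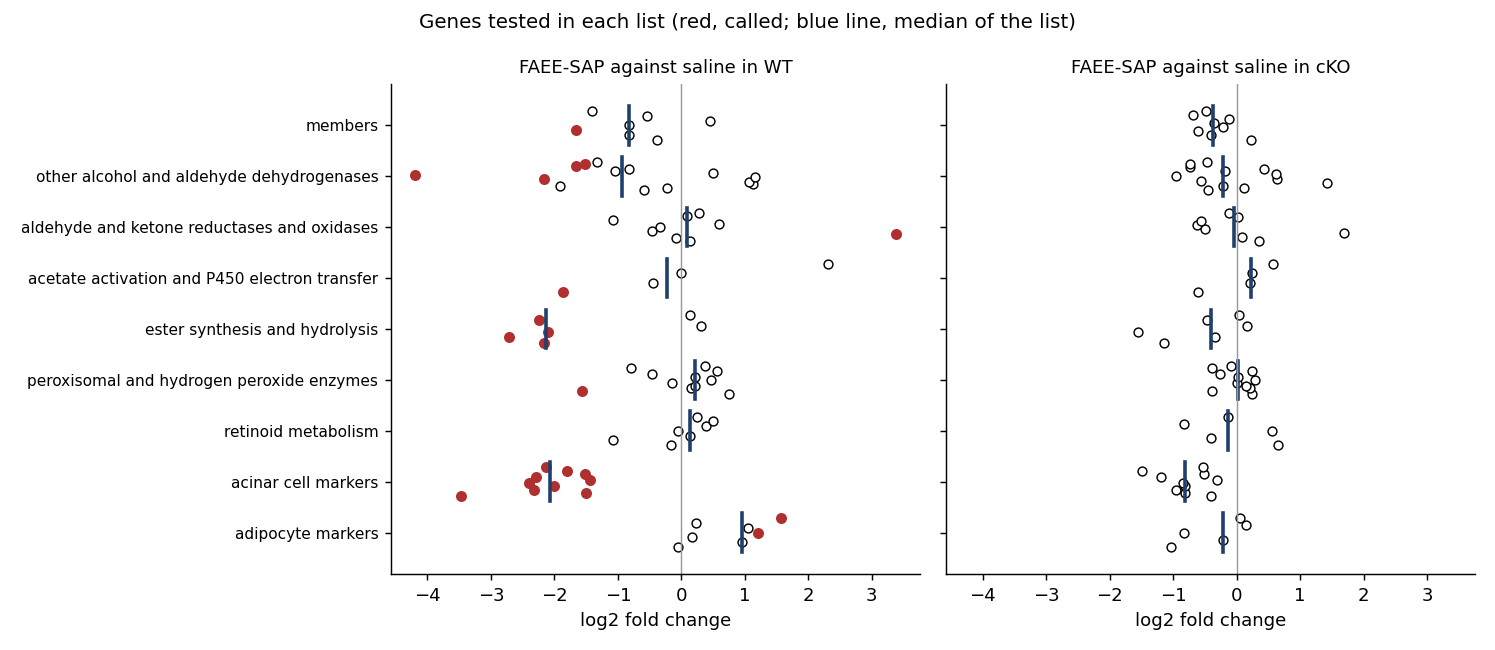
Log2 fold changes (x axis) of the genes tested in each list (rows) for FAEE-SAP against saline in WT (left) and cKO (right). Each point is 1 gene, filled where called, and the vertical bars are list medians. The 10 acinar markers are all called lower in WT, and no point is filled in cKO.

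Over the 8 libraries, *Aldh2*, *Adh5*, and *Aldh1a1* followed each other (Pearson r of log2 scaled RPKM 0.943 for *Aldh2* with *Adh5* and 0.934 for *Aldh2* with *Aldh1a1*), and *Cyp2e1* followed *Cat* (0.814). *Aldh3a2* was negatively related to each of the other 7, from -0.791 to -0.147. The libraries share treatment and genotype, and the values are descriptions. Among 7400 genes with a mean of at least 1 scaled RPKM, the genes most like *Aldh2* were *Sod1* (0.997), *Sdhb* (0.994), and *Pnliprp1* (0.994), and those most like *Aldh1a1* were *Slc7a2* (0.982), *Cel* (0.978), and *Lrp6* (0.977). *Adh5* was most like *Clybl* (0.992), *Lrrc51* (0.992), and *Iah1* (0.990). *Adh1* was most like *Sf3b1* (0.956), *Top2b* (0.956), and *Scn4b* (0.954). *Aldh3a2* was most like *Fam114a2* (0.986), *Trmt112* (0.982), and *Ube2r2* (0.977). *Cyp2e1* was most like *Srsf2* (0.987), *Etnk1* (0.964), and *Ago1* (0.955), and *Cat* was most like *Mettl21b* (0.968), *Golga1* (0.967), and *Klhl9* (0.953).

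Markers of cell types moved with the same contrasts. Of the 10 acinar markers, 10 fell in WT with FAEE-SAP (median log2 fold change -2.06, against -0.82 for the ethanol metabolism genes), 0 were called in cKO (median -0.81), and 7 were higher in cKO than in WT with FAEE-SAP (median 1.37). As deposited, the medians were -0.75 in WT, with 2 of the 10 called lower, and 0.41 for cKO against WT with FAEE-SAP, with 1 called. With no filter on low values, 0 of the calls given here for cKO against WT with FAEE-SAP were made, and when a library was left out each was made in at most 2 of the fits that tested the gene. Of 9 leukocyte markers, 8 were found and tested in WT. Called higher were 2, *S100a8* and *S100a9* of neutrophils, at 5.88 and 5.15 on the log2 scale. The other 6 lay between -0.61 (*Cd3e*) and 0.70 (*Cd68*), and the list median was 0.0044 (1.28 as deposited, with 5 called higher). With saline, the 8 summed to 10.2 and 17.2 scaled RPKM in WT and 12.2 and 10.6 in cKO, and with FAEE-SAP to 66.6 and 56.7 in WT and 36.8 and 22.9 in cKO, and *S100a8* and *S100a9* made up most of the WT FAEE-SAP sums (18.7 and 33.3 in the first library). With FAEE-SAP, *S100a8* was lower in cKO than in WT (-2.32, adjusted p = 0.0302). Of 8 adipocyte markers, 7 were tested in WT, and *Fabp4* and *Retn* were called higher. Neither was called with no filter on low values (limma, adjusted p = 0.0755 and 0.0667) or in every fit with a library left out. In RPKM as deposited, 6 of the 7 were called higher (list median 2.02, against 0.96 scaled). Mean scaled RPKM in WT saline and WT FAEE-SAP was 2.03 and 1.76 for *Adipoq*, 3.87 and 3.97 for *Plin4*, and 3.22 and 3.52 for *Cidec*. The 8 adipocyte markers summed to 40.2 and 63.3 (WT) and 62.1 and 40.7 (cKO) with saline, and to 83.4 and 116 (WT) and 88.8 and 27.0 (cKO) with FAEE-SAP. Within each group but WT FAEE-SAP, a pattern seen after the values were examined, the library with the higher adipocyte sum was also the one with the higher *Cyp2e1* and *Cat*. *Plin4*, of the same list, went the other way in these groups. It had 5.98 and 1.76 in WT saline, 1.40 and 4.71 in cKO saline, and 1.85 and 3.75 in cKO FAEE-SAP. Hepatocyte markers, of which *Alb* reached at most 2.23 scaled RPKM and was listed at 0 in 1 library, summed with saline to 7.96 to 8.27 in WT and 7.36 to 35.0 in cKO, and with FAEE-SAP to 1.39 to 1.98 in WT and 4.77 to 4.93 in cKO. In WT most of the sum was *Ttr*, also a gene of islet cells (6.98 and 7.56 with saline, 0.853 and 1.26 with FAEE-SAP), and the 35.0 of the first cKO saline library was mostly *Fabp1* and *Apoa1*. The other marker tested in WT, *Ahsg*, was at 1.55 on the log2 scale (adjusted p = 0.0704). With FAEE-SAP, *Ttr* was higher in cKO than in WT (1.93, adjusted p = 0.0403). Of 7 islet markers, *Gcg* (-1.001, and 0.31 as deposited) and *Sst* (-1.48, and -0.19 as deposited) fell with FAEE-SAP in WT (list median -0.75). The calls of both were lost with no filter on low values (limma, adjusted p = 0.0751 and 0.0785). They were also lost with a replicate block (limma, adjusted p = 0.0723 and 0.0513). The call of *Gcg* was made under 2 of 14 alternatives and that of *Sst* under 8 of 14. Between genotypes with FAEE-SAP, 3 islet markers were higher in cKO than in WT (list median 1.22). Of 7 duct markers, 5 were tested in WT and *Spp1* was called higher, at 1.79 (list median -0.44). In RPKM as deposited, 2 duct markers were called higher (list median 0.77). *Spp1* was not called with no filter on low values (limma, adjusted p = 0.0671). Of the fibroblast and stellate, endothelial, and red blood cell markers, 0 were called in these comparisons on the scaled values. In WT as deposited, 6 fibroblast and stellate and 3 endothelial markers were called higher with FAEE-SAP. The part of these cell types in the levels of the 8 genes was not tested.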

How the data were processed

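RNA of pancreas tissue from 8 mice (4 groups, 2 biological replicates each) was sequenced from directional libraries. Per the labels and the methods of the study, reads were cleaned with fastp and mapped to GRCm38.p6 with CLC Genomics Workbench. How RPKM was computed from the mapped reads, and whether strand was used, is not given in the sources used here. The authors deposited RPKM for 48709 genes in each library, and these values were used here. Library totals (22.8 to 37.6 M reads) were worked out from the low RPKM and GENCODE vM21 exonic lengths (95.1% of genes matched by symbol). Of the values under 20 reads, 84.5% to 85.9% were whole within 0.1 reads, and the reads summed to 100.3% to 105.7% of the totals, so reads per gene are approximate.

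Genes were tested where 2 or more of the libraries fitted had a deposited RPKM of 0.5 or more, with limma 3.58.1 (R 4.3.3, lmFit and eBayes with trend) on log2(RPKM scaled by the median of ratios + 0.1), a scale that understates changes of low genes. Each comparison was fitted on its own 4 libraries, and the interaction on all 8. Levels per library were scaled over all 8. Calls needed a Benjamini-Hochberg adjusted p under 0.05 over all genes tested and at least 2-fold. By permutation, 2 against 2 libraries cannot go below a two-sided p of 0.33, so no such test was run. Labels do not tie replicate numbers across groups. Alternatives were no scaling, trimmed mean or quantile scaling, filters, pseudocounts, no trend, all 8 libraries together, a replicate block, thresholds, and leaving out each library. Their use on the called genes of the other lists was added after the data were seen. The procedure was tested on simulated data. All 8 genes are named in every comparison, and of other lists up to 5 called genes by absolute log2 fold change. For each of the 8 that reached an RPKM of 1 in 4 or more libraries, the 3 genes of highest Pearson correlation are named. The genes and lists were chosen with earlier results of these data known. Promoter sequences are from RefSeq (GRCm38.p6). Tables and plots were made in Python 3.11.15 (pandas 2.3.3, numpy 2.4.6, matplotlib 3.10.9).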

Additional observations from a re-analysis of the deposited data

Results flagged for a closer look

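The direction of the FAEE-SAP difference of *Aldh3a2* was not the same in the 2 genotypes. Both WT FAEE-SAP libraries were above both WT saline libraries, and both cKO FAEE-SAP libraries were below both cKO saline libraries. The difference of the effects, cKO minus WT, was -0.60 on the log2 scale (limma over all 8 libraries, SE 0.22, adjusted p = 0.346 over all genes tested). It did not pass after adjustment. As deposited, *Aldh3a2* was higher with FAEE-SAP in both genotypes, so the opposite direction in cKO rests on the scaling.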

How the results depend on the processing

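Of 549 fold changes of the 8 genes under alternatives, 506 kept their direction and side of the threshold, 4 passed where they had not, 6 no longer passed, and 33 changed sign, 21 of these with values as deposited. The call of *Aldh1a1* in WT held under 8 of 14 alternatives (log2 fold change -1.89 to -0.35, adjusted p 0.00798 to 0.283) and was lost with values as deposited, with no filter (-1.60, adjusted p = 0.0617), and without any 1 of the 4 libraries. The cause was not tested. Where a library was left out, the lone sample of a group was assumed to vary like the others.

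In the counts of this paragraph, an unadjusted p stands for an unadjusted p under 0.05 together with a change of at least 2-fold. For FAEE-SAP against saline in WT, the number of ethanol metabolism genes called was 0 with no filter, 2 at an unadjusted p, and 2 with no fold minimum. The number of all genes called was 7270 as deposited, 259 with no filter, 97 to 491 without 1 replicate, and 1349 at an unadjusted p. In cKO, all genes called were 15 as deposited, 0 with no filter, 15 with all 8 libraries together, 0 to 6 without 1 replicate, and 280 at an unadjusted p. For cKO against WT with saline, they were 2 as deposited, 1 with quantile normalization, and 59 at an unadjusted p. With FAEE-SAP, 2 ethanol metabolism genes were called as deposited, and all genes called were 4427 as deposited, 80 with quantile normalization, 0 with no filter, 57 without the trend, 294 with all 8 libraries together, 0 to 139 without 1 replicate, and 924 at an unadjusted p. In the interaction, 1 ethanol metabolism gene was called as deposited and 1 at an unadjusted p, and all genes called were 791 as deposited, 25 with quantile normalization, 0 with no filter, 35 with an RPKM minimum of 2, 24 and 1 with pseudocounts of 1 and 0.01, 3 without the trend, 0 to 4 without 1 replicate, and 783 at an unadjusted p.

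The replicates share only a number: deviations of same-numbered libraries correlated at -0.175 in WT, 0.45 in cKO, -0.395 with saline, and 0.313 with FAEE-SAP. With replicate number as a block, all genes called were 442, 52, 0, 568, and 0 in the 5 comparisons in the order above, and the calls of the 8 genes were the same.

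As deposited, log2 fold changes with the other sign were, for FAEE-SAP in WT, *Adh1* 0.91, *Adh5* 0.47, *Aldh2* 0.49, and *Cat* 0.76. In cKO they were *Adh5* 0.21, *Aldh2* 0.27, *Aldh1a1* 0.0081, *Aldh1b1* 0.29, *Aldh3a2* 0.49, and *Cyp2e1* 0.12. For cKO against WT with saline they were *Aldh2* -0.11 and *Aldh3a2* -0.24, and with FAEE-SAP *Adh1* -0.46, *Adh5* -0.26, *Aldh2* -0.34, *Aldh1b1* -0.081, and *Cyp2e1* -0.45. In the interaction they were *Adh1* -0.078, *Adh5* -0.26, *Aldh2* -0.23, and *Aldh1b1* -0.19. With an RPKM minimum of 2, *Aldh3a2* for cKO against WT with saline was -0.013. Without 1 replicate, fold changes that changed sign ranged, for FAEE-SAP in cKO, from -1.01 to 0.11 (*Cyp2e1*) and -0.58 to 0.076 (*Aldh1b1*), for cKO against WT with saline from -0.28 to 0.11 (*Aldh1a1*) and -0.32 to 0.062 (*Cat*), with FAEE-SAP from -0.027 to 1.01 (*Cyp2e1*) and -0.62 to 0.049 (*Cat*), and in the interaction from -0.062 to 0.71 (*Aldh1b1*) and -0.52 to 0.17 (*Cat*). Depth limits *Aldh1b1* most, on 18 to 45 reads per library.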
